A study of Homo sapiens with 12 samples.

Results

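PANC-1 and H1299 cells carrying the same scrambled control shRNA were compared at baseline, gene by gene, from bulk RNA-seq counts. The comparison used 6 of the 12 libraries of the series, 3 of PANC-1 scramble cells and 3 of H1299 scramble cells, taken by their sample labels. PANC-1 is an established line of pancreatic adenocarcinoma cells and H1299 an established line of lung adenocarcinoma cells, as labelled, and each line descends from 1 tumour, so a line stands for itself and not for a tumour type. Both were grown in DMEM with 10% FBS, both received the pLKO.1 vector with the scramble target and puromycin selection, and the labels give the genotype of both as WT and number the libraries as biological replicates 1 to 3. The other 6 libraries are PANC-1 with an shRNA to FOSL1 and H1299 with an shRNA to HDAC2, and they were used here only to look at silent genes again. Both control lines express an shRNA to the sequence below, 5′ to 3′, shown because both groups received it. Its 19 bases have an exact match in 0 annotated human genes.
scramble target: cgtacgcggaatacttcga

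Cancer cell lines keep part of the gene program of the tissue they came from and lose or add other parts. Pancreatic ducts and lung airways are both lined by epithelia that arise from foregut endoderm, and factors of the FOXA, GATA and SOX families act in both. Epithelial cells hold together through E-cadherin, claudins and keratins, whereas mesenchymal cells use vimentin, fibronectin and transcription factors of the TWIST and SNAI families. Genes can be shut off completely in a line when their DNA is lost or their promoter is methylated, and germline and imprinted genes are classes in which methylation is the normal means of silencing. PANC-1 is known for loss of CDKN2A, and H1299 for an activating mutation of NRAS.

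The 3 H1299 libraries held 16580011 to 18503086 counts and the 3 PANC-1 libraries 18876252 to 19122034. Mitochondrial genes took 11.8% to 13.0% of the counts in H1299 and 6.99% to 7.29% in PANC-1. Replicate 1 of each line differed more from the other replicates than those did from each other, judged by the chi-square over genes divided by its degrees of freedom, which was 6.91 and 6.21 against 3.61 in H1299 and 7.08 and 9.54 against 3.05 in PANC-1. The spread between replicates was small, with a biological coefficient of variation of 0.0818, so that differences well under 2-fold passed the test. Levels are given as CPM, counts per 1000000 counts assigned to genes after TMM scaling, which serves to compare libraries but not genes of different length.

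The lines differed in a large part of their expressed genes. Of 17619 genes tested, 13546 had an adjusted p under 0.05, and a gene was called when it also differed by more than 2-fold, which is 1 on the log2 scale. By this rule 3472 genes were higher in PANC-1, which is 19.7% of those tested, and 3575 were higher in H1299, which is 20.3%. With the 20 most abundant genes and those encoded in the mitochondrion left out, the counts were 3469 and 3557. The counts of each gene list below are to be read against these shares, which for a list of 20 genes correspond to about 4 in each direction. The median log2 difference over all genes was -0.03. Fold changes are PANC-1 over H1299 from edgeR's quasi-likelihood test, p-values are adjusted by the Benjamini-Hochberg method over all genes tested, and a list is described by its counts and median with no test of its own. The counts cover the members that passed the filter on low counts, which a gene expressed in 1 line passed through that line.

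**Figure D1:**
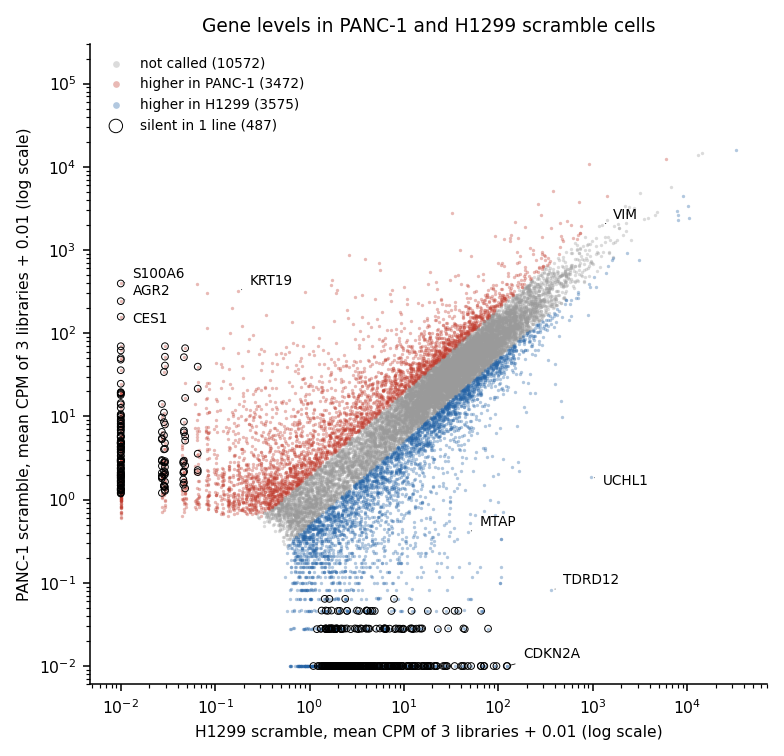
Mean level of each gene in the 3 H1299 scramble libraries (x axis, CPM + 0.01, log scale) and in the 3 PANC-1 scramble libraries (y axis, same scale). Grey points are the 10572 genes not called, red and blue points the 3472 and 3575 genes called higher in PANC-1 and in H1299, and rings the 487 genes silent in 1 line, which lie along the left and lower edges.

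The labels were checked against markers of pancreas, lung and of cells other than epithelium. Of 14 acinar genes, 8 were below 0.1 CPM in all 6 libraries, and PTF1A, the acinar transcription factor, had 0 counts in each. INS, which encodes insulin, was also at 0 in each library. Of 20 lung alveolar and airway genes, 7 were below 0.1 CPM in all 6 libraries. SFTPC, a surfactant protein of alveolar cells, had 0.224 CPM in H1299 replicate 1 and 0 in the other 5 libraries, and SCGB1A1, a secretory protein of airway club cells, had 0.0549 CPM in PANC-1 replicate 1 and 0 elsewhere. The acinar list summed to 0.816 to 1.21 CPM in PANC-1 and 1.35 to 2.33 CPM in H1299, and its 1 tested gene was higher in H1299. Some lung and endocrine genes were expressed. The lung list summed to 681 to 691 CPM in PANC-1 and 544 to 586 CPM in H1299, most of it from CAV1, the caveolin of cell membranes, at 456 ± 7.28 CPM and 356 ± 9.13 CPM (SD, n = 3 each), and of its 8 tested genes 1 was higher in PANC-1 and 7 were not called. The 12 endocrine markers summed to 67.3 to 77.0 CPM in PANC-1 and 62.2 to 67.8 CPM in H1299, and the 19 duct markers to 570 to 654 CPM in PANC-1 and 55.6 to 61.4 CPM in H1299. The summed level of 13 immune markers was 4.62 to 5.06 CPM in PANC-1 and 0.830 to 1.11 CPM in H1299, and 5 of the 13 were at 0 in each line. Endothelial, fibroblast and muscle markers summed to 238 to 300 CPM in PANC-1 and 20.8 to 24.1 in H1299, and most of the PANC-1 sum was COL1A1, a chain of type I collagen, at 284, 254 and 224 CPM. It was 4.93, 4.01 and 6.01 CPM in H1299, a 50.7-fold difference.

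Transcription factors of foregut endoderm split between the lines rather than following 1 of them. Of 22 tested factors of pancreas and foregut, 7 were higher in PANC-1, 6 were higher in H1299 and 9 were not called, with a median log2 difference of 0.27. FOXA2, a pioneer factor of endoderm, stood at 71.5, 62.5 and 64.0 CPM in PANC-1 and at 0.0561, 0.0582 and 0 CPM in H1299. These are 2 counts in all in H1299, which puts the ratio at 1791 with an exact 95% counting interval of 495.5 to 14800. Its paralog FOXA1 went the other way, at 1.04, 0.816 and 0.692 CPM in PANC-1 and 7.07, 6.51 and 5.6 CPM in H1299 (log2 -2.90, SE 0.24, edgeR adjusted p = 5.8e-10). The GATA factors were likewise divided. GATA4 had 30.5, 27.7 and 30.9 CPM in PANC-1 against 0.449, 1.10 and 1.5 in H1299 (log2 4.84, SE 0.20, edgeR adjusted p = 1.2e-14). GATA6, which is active in the classical form of pancreatic cancer, had 5.6, 3.26 and 3.25 CPM in PANC-1 against 39.9, 38 and 37.4 in H1299 (log2 -3.25, SE 0.16, edgeR adjusted p = 1e-13). GATA4 was thus higher in PANC-1 and GATA6 in H1299.

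The factors that define the pancreas were low in both lines. PDX1, needed to form the pancreas, reached 2.58, 1.90 and 1.86 CPM in PANC-1 and was at 0, 0 and 0.259 CPM in H1299. NKX6-1, a factor of beta cells, was higher in the lung line, with 0.988, 1.20 and 1.33 CPM in PANC-1 and 11.1, 9.71 and 10.7 CPM in H1299. NKX2-1, which specifies lung and thyroid, was at 0.659, 0.326 and 0.320 CPM in PANC-1 and 2.75, 3.08 and 1.81 CPM in H1299, and 40.7% of its exon bases lie in another annotated gene. Higher in PANC-1 but within the 2-fold limit was SOX9, the factor of ductal progenitors, at 257 ± 12.6 CPM against 162 ± 4.37 (SD, n = 3 each). Of 12 tested lung and airway factors 3 were higher in PANC-1, 4 higher in H1299 and 5 not called.

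HOX genes, which carry the position of a cell along the body axis, were also mixed, with 11 of 35 higher in PANC-1, 10 higher in H1299 and 14 not called. HOXD13, a gene of the most posterior group, had 0 counts in PANC-1 and 3.70, 3.31 and 6.79 CPM in H1299, at least 86.3-fold higher. HOXA10 stood at 0.329, 0.109 and 0.479 CPM in PANC-1 against 4.82, 3.26 and 5.55 in H1299. HOXB9 was expressed in both lines and not called, at 93.3 ± 2.76 CPM in PANC-1 and 71.3 ± 3.48 in H1299 (SD, n = 3 each).

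Markers of pancreatic ducts included some of the widest differences in the data. Of 11 tested, 6 were higher in PANC-1, 4 were higher in H1299 and 1 was not called (median log2 1.33). AGR2, a disulfide isomerase that helps to fold mucins, was at 264, 240 and 225 CPM in PANC-1 and had 0 counts in each H1299 library, at least 4391-fold lower. KRT19, the keratin of duct cells, was at 353, 303 and 313 CPM in PANC-1 and 0.0561, 0.174 and 0.259 CPM in H1299, a 1872-fold difference. MUC1, an apical mucin, was present in both lines and 2.51-fold higher in PANC-1. MUC5AC, a gel-forming mucin of gastric type, stood at 3.08, 2.17 and 2.50 CPM in PANC-1 and 0 in H1299, at least 46.7-fold lower. Against this direction, SPP1, which encodes osteopontin, was at 0.549, 0.707 and 0.266 CPM in PANC-1 and 26.6, 30.6 and 26.4 CPM in H1299. Hence the duct list did not move as one.

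**Figure D2:**
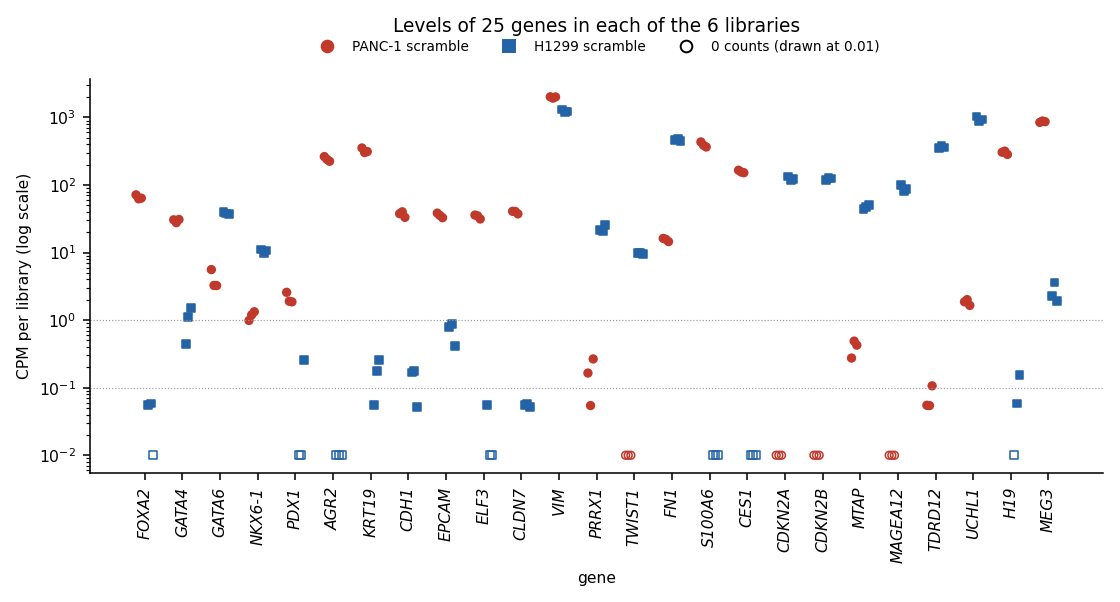
Level of 25 genes in each of the 6 libraries (y axis, CPM, log scale), with red circles for PANC-1 scramble, blue squares for H1299 scramble and open symbols at 0.01 for 0 counts. Dotted lines mark 0.1 and 1 CPM, the limits of the rule for silent genes. The lines lie apart at each gene drawn, all of them genes named in the text. Levels near 0 scatter between libraries, as for PDX1 and H19 in H1299.

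Epithelial identity genes were mostly higher in PANC-1. The 24 genes of the list summed to 1054 to 1241 CPM in PANC-1 and 82.9 to 86.9 CPM in H1299. Of 18 tested, 14 were higher in PANC-1, 0 were higher in H1299 and 4 were not called, and the median log2 difference was 3.81. CDH1, which encodes E-cadherin, stood at 37.7, 40.1 and 33.2 CPM in PANC-1 and at 0.168, 0.174 and 0.0519 CPM in H1299 (log2 8.09, SE 0.23, edgeR adjusted p = 2.4e-17). In bulk RNA, fewer expressing cells and less RNA per cell cannot be told apart. EPCAM, an epithelial surface glycoprotein, was at 38.4, 35.5 and 32.9 CPM against 0.785, 0.872 and 0.415, a 51.6-fold difference. In H1299, ELF3, an epithelial ETS factor, was represented by 1 count in all, against 35.9, 35 and 31.4 CPM in PANC-1, and the ratio of 1850 has an exact 95% counting interval of 331.7 to 73130. ESRP2, which directs epithelial splicing, was at 57.9, 54.4 and 51.0 CPM in PANC-1 and 0.336, 0.931 and 2.07 CPM in H1299. Since lists were searched for their largest called differences, the separation of the libraries at these 4 genes is no further result.

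Junction genes followed the same direction in part. Of 20 tested tight junction genes 10 were higher in PANC-1 and 4 in H1299 (median log2 1.22), and of 20 genes of desmosomes and adherens junctions 10 were higher in PANC-1 and 4 in H1299 (median 0.98). CLDN7, a claudin of simple epithelia, was at 40.8, 40.6 and 37.4 CPM in PANC-1 and had 3 counts in all in H1299, for a ratio of 717 with an exact 95% counting interval of 245.0 to 3479. CLDN4 was 28.5-fold higher in PANC-1, at 146 ± 16.1 CPM against 5.15 ± 0.778 (SD, n = 3 each). CLDN1 was an exception, at 13.0, 16.3 and 15.7 CPM in PANC-1 and 61.9, 63.3 and 66.4 CPM in H1299. PKP2, a desmosomal plaque protein, was also higher in H1299, by 2.87-fold. TJP1, the scaffold protein of tight junctions, was expressed in both lines and was not called (log2 -0.80, SE 0.09).

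Cadherins were mostly higher in PANC-1, with 11 of 19 tested, against 2 higher in H1299. CDH3, or P-cadherin, was at 14.9, 13.9 and 16.3 CPM in PANC-1 and 0.505, 0.174 and 0.778 CPM in H1299, and CDH17, a cadherin of the gut lining, was 66.9-fold higher in PANC-1. CDH2, the N-cadherin of mesenchymal and neural cells, was at 32.4 ± 1.22 CPM in PANC-1 and 38.3 ± 1.56 in H1299 (SD, n = 3 each) and was not called. PANC-1 thus had both E-cadherin and N-cadherin counts, and H1299 had N-cadherin with E-cadherin near 0. DSC3, a desmosomal cadherin, was at 5.49, 4.51 and 6.66 CPM in PANC-1 and at 0, 0 and 0.985 CPM in H1299, where replicate 3 held all of its counts, and with DESeq2 it missed the threshold (adjusted p = 0.0688).

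Among keratins, 4 of 8 were higher in PANC-1, 1 was higher in H1299 and 3 were not called. KRT8 and KRT18 pair into the filaments of simple epithelia. KRT8 was at 1656, 1430 and 1239 CPM in PANC-1 and 311, 279 and 274 CPM in H1299, and its 5.01-fold difference passed the limit. The 1.68-fold difference of KRT18, at 491 ± 53.1 CPM against 292 ± 15.2 (SD, n = 3 each), did not. H1299 therefore kept the counts of the simple keratin pair while KRT19 was nearly at 0. KRT80 was 3.11-fold higher in H1299.

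Mesenchymal genes did not form a mirror image of the epithelial list. Of 17 tested, 7 were higher in H1299, 3 were higher in PANC-1 and 7 were not called, with a median log2 difference of -0.56. TWIST1, a basic helix-loop-helix factor of mesoderm, had 0 counts in PANC-1 and 9.81, 9.89 and 9.54 CPM in H1299, at least 180-fold higher. PRRX1, a homeobox factor of mesenchyme, was at 0.165, 0.0544 and 0.266 CPM in PANC-1 and 21.8, 20.6 and 25.4 CPM in H1299. FN1, which encodes fibronectin, was at 16.2, 15.7 and 14.5 CPM in PANC-1 and 460, 486 and 446 CPM in H1299 (log2 -4.91, SE 0.09, edgeR adjusted p = 2.6e-20). SNAI1, a repressor of E-cadherin, was the reverse, at 28.6, 28.5 and 23.9 CPM in PANC-1 and 3.14, 1.80 and 1.81 CPM in H1299. VIM, or vimentin, was at 2023, 1932 and 2013 CPM in PANC-1 and 1309, 1198 and 1227 CPM in H1299, so the line with E-cadherin had the higher vimentin, by 1.6-fold, which is under the limit for a call.

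Matrix and matrix receptor genes were divided between the lines. Of 29 tested laminin and collagen genes 10 were higher in PANC-1 and 11 in H1299, and of 20 integrins 6 were higher in PANC-1, 5 in H1299 and 9 were not called. ITGB4, the beta subunit of hemidesmosomes, was 3.68-fold higher in PANC-1, and ITGA2, a subunit of a collagen receptor, 2.74-fold higher. ITGA4, a receptor subunit for fibronectin and VCAM1, was at 0.110, 0 and 0.266 CPM in PANC-1 and 55.2, 61.0 and 63.6 CPM in H1299. The common subunit ITGB1 was not called, at 998 ± 134 CPM in PANC-1 and 836 ± 64.2 in H1299 (SD, n = 3 each). Of 17 immunoglobulin-type adhesion genes 7 were higher in PANC-1 and 2 in H1299. L1CAM, a neural adhesion molecule also found in carcinomas, was at 354, 315 and 322 CPM in PANC-1 and 2.35, 1.92 and 1.5 CPM in H1299, a 172-fold difference. MCAM was 81.7-fold higher in PANC-1, at 292 ± 8.69 CPM against 3.55 ± 0.652 (SD, n = 3 each).

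**Figure D3:**
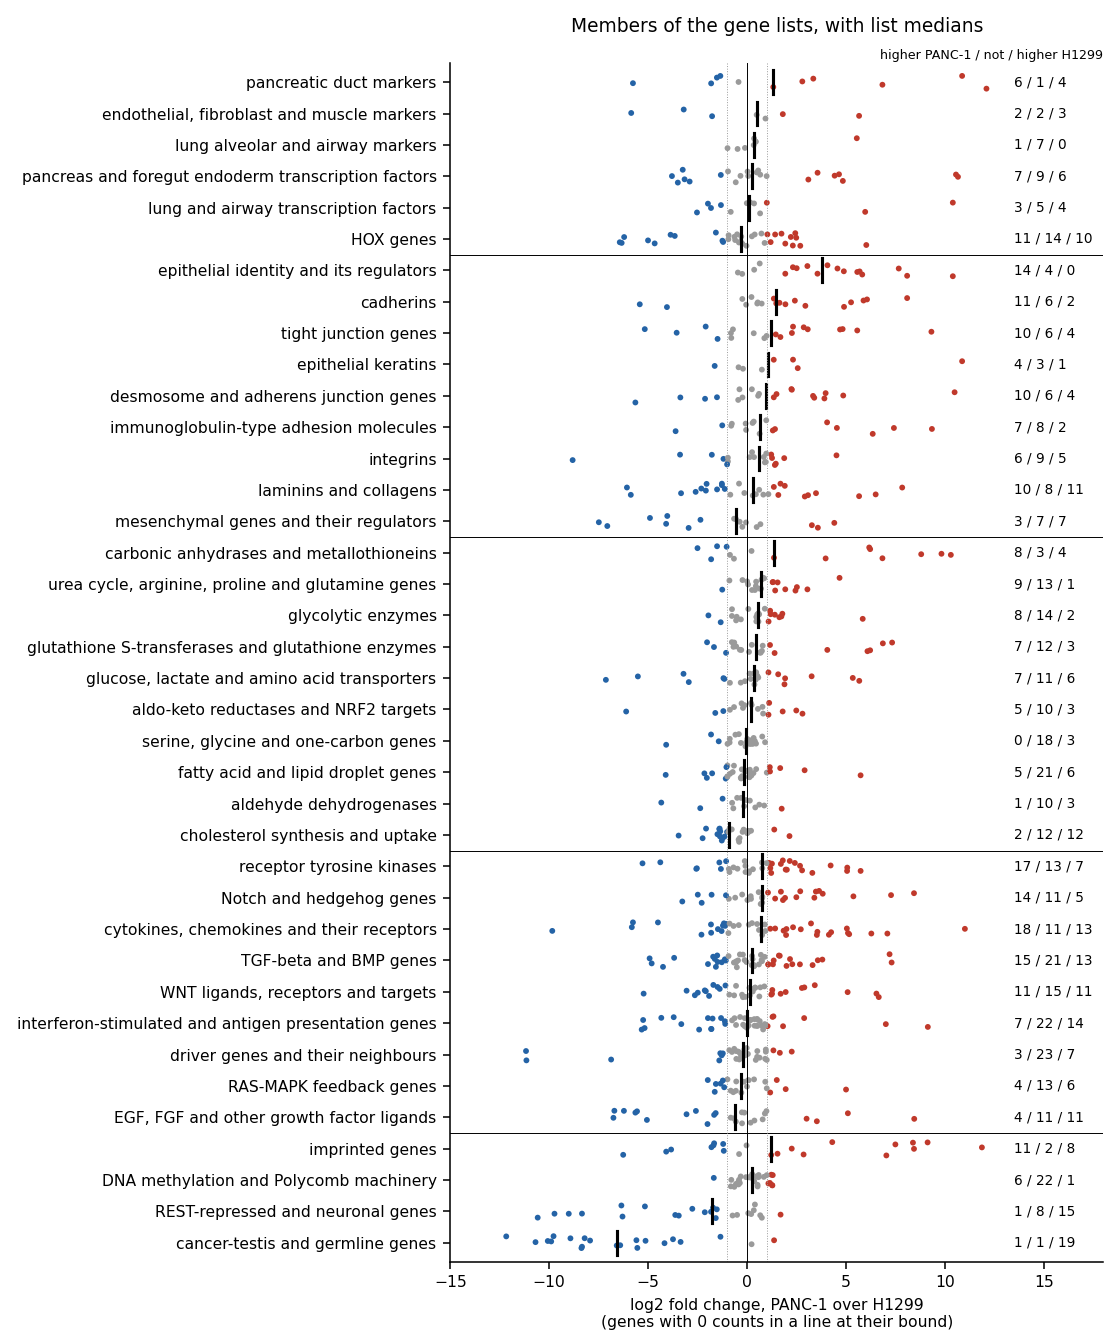
Log2 fold change, PANC-1 over H1299 (x axis), of the tested members of the gene lists (y axis), with red, grey and blue points for members called higher in PANC-1, not called and called higher in H1299, a black bar at the list's median, and genes with 0 counts in a line at their bound. Numbers at the right count the members in that order, and the epithelial list lies mostly to the right with 14 called and the cancer-testis list mostly to the left with 19 called.

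Some genes were counted in 1 line and nearly or fully absent in the other. A gene was called silent in a line when it was below 0.1 CPM in each of its 3 libraries and at least 1 CPM in each library of the other line. By this rule 320 of 14300 genes expressed in H1299 were silent in PANC-1, which is 2.24%, and 167 of 14141 genes expressed in PANC-1 were silent in H1299, which is 1.18%. These genes were chosen by their levels, so their differences are given without a test. Of the 320, 160 were protein-coding, 126 were long noncoding RNAs and 34 were of other types, and 219 had 0 counts over the 3 PANC-1 libraries. Of the 167, 115 were protein-coding, 34 were long noncoding RNAs and 18 were of other types, and 103 had 0 counts in H1299. With H1299 replicate 1, 2 or 3 left out, 198, 192 and 230 genes met the rule for H1299. In the line that expressed them the median level was 3.86 CPM for the first group and 3.34 CPM for the second, and 66 and 31 genes reached 10 CPM. A count of 0 over 3 libraries leaves room for up to 3 counts, a level of 0.0542 CPM in PANC-1 and 0.0552 CPM in H1299, and bounds on fold changes use that floor. It covers counting error only.

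Ranked by CPM without regard to gene length, the silent genes of H1299 were led by S100A6, a calcium-binding protein of epithelial and stromal cells, at 434, 387 and 366 CPM in PANC-1 and 0 counts in each H1299 library, at least 7158-fold lower. AGR2 was next, followed by CES1, a carboxylesterase that hydrolyses esters and many drugs, at 166, 156 and 152 CPM against 0, at least 2858-fold lower. MT1E, a metallothionein that binds zinc and copper, was at 72.5, 67.8 and 68.7 CPM against 0, at least 1261-fold lower. MLPH, which links melanosomes and other vesicles to myosin, was at 50.7, 49.0 and 44.6 CPM against 0, at least 870-fold lower.

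The silent genes of PANC-1 were led by CDKN2A and CDKN2B, the inhibitors of CDK4 and CDK6 that lie side by side on chromosome 9. CDKN2A had 0 counts in each PANC-1 library and 134, 116 and 123 CPM in H1299, at least 2297-fold higher. CDKN2B had 0 counts in PANC-1 and 117, 126 and 125 CPM in H1299, at least 2267-fold higher. MAGEA12, a germline antigen gene of the X chromosome, was at 0 against 101, 80.7 and 86.2 CPM, at least 1651-fold higher, and TRIM58, a ubiquitin ligase of red cell precursors, was at 0 against 68.1, 64.9 and 62.5 CPM, at least 1202-fold higher. Just outside the rule lay TDRD12, a Tudor-domain gene of the germline piRNA pathway, at 0.0549, 0.0544 and 0.106 CPM in PANC-1 and 351, 380 and 359 CPM in H1299. On the other side PLCH2, a phospholipase C, lay just outside at 433, 380 and 374 CPM in PANC-1 and 0.112, 0 and 0.0519 CPM in H1299.

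The knockdown libraries, which the choice of silent genes did not use, gave the same levels for most of them. Of the 320 genes silent in PANC-1, 268 were below 0.1 CPM in all 3 PANC-1 libraries with the FOSL1 shRNA and 0 reached 1 CPM in all 3. Of the 167 genes silent in H1299, 124 were below 0.1 CPM in all 3 H1299 libraries with the HDAC2 shRNA and 0 reached 1 CPM in all 3. The highest means among them, named after their values were seen, were 0.433 CPM for NWD1 in PANC-1 and 0.308 CPM for BMP5 in H1299. These libraries are further cultures of the same lines and carry another shRNA, so they repeat the line and not the treatment.

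Promoter sequence was not used to choose the silent genes. Each gene was represented by 1 promoter, so other start sites of the same gene are not covered. RefSeq promoters of GRCh38.p14, taken as the 250 bases before the start site, were found for 126 of 160 protein-coding genes silent in PANC-1 and 76 of 115 silent in H1299. A CpG is a C followed by a G, the site of DNA methylation in vertebrates, and its number over that expected from the C and G content is near 1 in CpG islands and low elsewhere. The median ratio was 0.680 for genes silent in PANC-1 and 0.546 for genes silent in H1299. It was 0.835 for the 9423 promoters of genes at 1 CPM or more in all 6 libraries and 0.231 for the 2129 promoters of genes below 0.1 CPM in all 6. Promoters with at least 50% G and C and a ratio of at least 0.6 made up 57.1% and 42.1% of the silent groups, 80.6% of the genes expressed throughout and 14.9% of the genes off throughout. The silent genes thus lay between both reference groups, and methylation itself was not measured.

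The 4 promoters below, from the reference genome, show a CpG-rich and a CpG-poor promoter among the silent genes of each line. Every CpG is in capitals, 5′ to 3′ on the strand of the gene. Only the promoter used for each gene is printed, and CDKN2A or the others may have further start sites that are not shown. CDKN2A (chr9:21995325-21995574, minus strand, 24 CpG, ratio 1.08) and MAGEA12 (chrX:152733507-152733756, plus strand, 5 CpG, ratio 0.238) were silent in PANC-1. S100A6 (chr1:153535992-153536241, minus strand, 24 CpG, ratio 0.803) and ELF3 (chr1:202010337-202010586, plus strand, 4 CpG, ratio 0.190) were silent in H1299.
CDKN2A: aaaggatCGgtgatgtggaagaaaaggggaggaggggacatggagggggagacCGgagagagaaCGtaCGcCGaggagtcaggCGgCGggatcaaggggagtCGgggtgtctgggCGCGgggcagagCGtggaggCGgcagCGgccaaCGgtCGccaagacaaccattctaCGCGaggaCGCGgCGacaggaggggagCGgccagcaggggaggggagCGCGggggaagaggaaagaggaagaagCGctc
MAGEA12: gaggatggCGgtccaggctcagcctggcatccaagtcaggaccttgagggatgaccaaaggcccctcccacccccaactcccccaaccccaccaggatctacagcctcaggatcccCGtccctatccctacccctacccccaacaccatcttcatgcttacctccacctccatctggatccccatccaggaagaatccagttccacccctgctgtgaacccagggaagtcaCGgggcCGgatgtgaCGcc
S100A6: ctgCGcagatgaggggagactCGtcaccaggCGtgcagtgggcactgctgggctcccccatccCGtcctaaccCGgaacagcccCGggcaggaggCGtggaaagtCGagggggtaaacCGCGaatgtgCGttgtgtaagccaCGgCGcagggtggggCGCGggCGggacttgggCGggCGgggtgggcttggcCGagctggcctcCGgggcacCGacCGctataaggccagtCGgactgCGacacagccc
ELF3: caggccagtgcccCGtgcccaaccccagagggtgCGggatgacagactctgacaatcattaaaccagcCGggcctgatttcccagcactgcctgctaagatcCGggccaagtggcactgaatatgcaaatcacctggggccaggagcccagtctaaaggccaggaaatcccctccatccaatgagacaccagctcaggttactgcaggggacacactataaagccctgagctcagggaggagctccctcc
A capital in these sequences marks a possible site of methylation and not a methylated one. PANC-1 is known for loss of CDKN2A, and whether this promoter is present in its DNA was not tested.

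**Figure D4:**
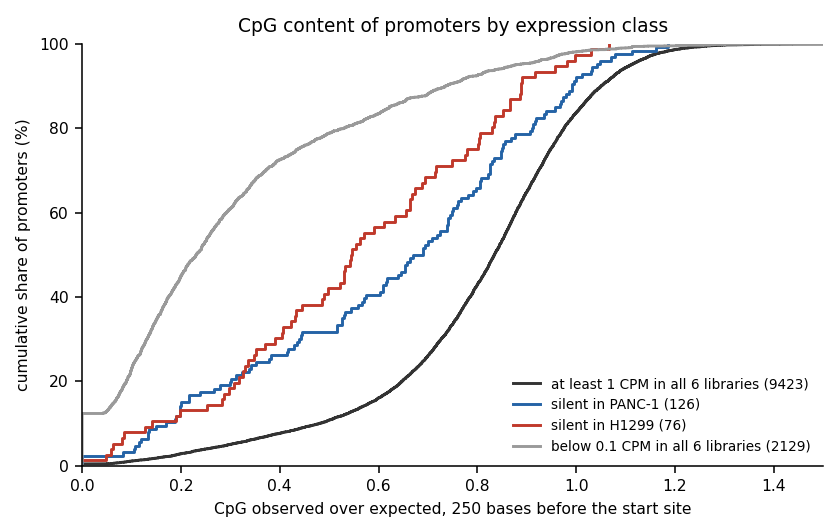
Cumulative share of promoters (y axis, %) up to each ratio of observed to expected CpG in the 250 bases before the start site (x axis), for genes expressed in all 6 libraries (black, 9423), silent in PANC-1 (blue, 126), silent in H1299 (red, 76) and off in all 6 (grey, 2129). The silent groups, with medians of 0.680 and 0.546, lie between the expressed genes at 0.835 and the off genes at 0.231.

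Part of the silent genes lay side by side in the genome. Runs of at least 3 silent genes of 1 line, each starting within 1 Mb of the next, held 72 of the 320 genes silent in PANC-1 in 18 runs and 33 of the 167 genes silent in H1299 in 8 runs. Positions are those of GENCODE release 44 on GRCh38. The run with CDKN2A and CDKN2B spanned chr9:21858910-22128103, and all 6 genes tested in it were higher in H1299. For the 4 silent genes that define this run, the choice by level set that direction. MTAP, the methylthioadenosine phosphorylase gene next to CDKN2A, was not silent by the rule, at 0.275, 0.489 and 0.426 CPM in PANC-1 and 43.7, 47.8 and 50.1 CPM in H1299 (log2 -6.87, SE 0.18, edgeR adjusted p = 5.3e-18). Within 1 Mb before the run 2 of 6 tested genes were higher in PANC-1 and 2 higher in H1299, and of 2 after it 0 were higher in PANC-1 and 1 in H1299. A lost gene and an unexpressed gene cannot be told apart from counts.

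Neighbouring genes were also counted for a run on chromosome 19 and one on chromosome 11. The run from ZNF667 to ZSCAN18, chr19:56439325-58118427, held 10 genes silent in PANC-1, 7 of them protein-coding and several of them zinc finger genes, but of the 55 genes tested inside its bounds 16 were higher in H1299 and 13 higher in PANC-1. In the 1 Mb before it 16 of 29 were higher in PANC-1 and 4 in H1299, and in the 1 Mb after it 11 of 34 and 1, with median log2 differences of 0.26 in the run, 1.31 before and 0.70 after it. ZNF667 had 0 counts in PANC-1 and 6.73, 8.96 and 8.50 CPM in H1299, at least 149-fold higher. Over chromosome 19 as a whole, 14 of 230 zinc finger genes expressed in H1299 were silent in PANC-1, and 0 of 206 expressed in PANC-1 were silent in H1299. Elsewhere in the genome the counts were 5 of 265 and 1 of 256. The run from MUC5AC to KCNQ1, chr11:1157953-2849105, held 5 genes silent in H1299, and most genes around it were higher in PANC-1. There 19 of 23 tested genes in the run, 41 of 51 in the 1 Mb before it and 13 of 14 in the 1 Mb after it were higher in PANC-1, with median log2 differences of 2.86, 1.82 and 1.75.

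**Figure D5:**
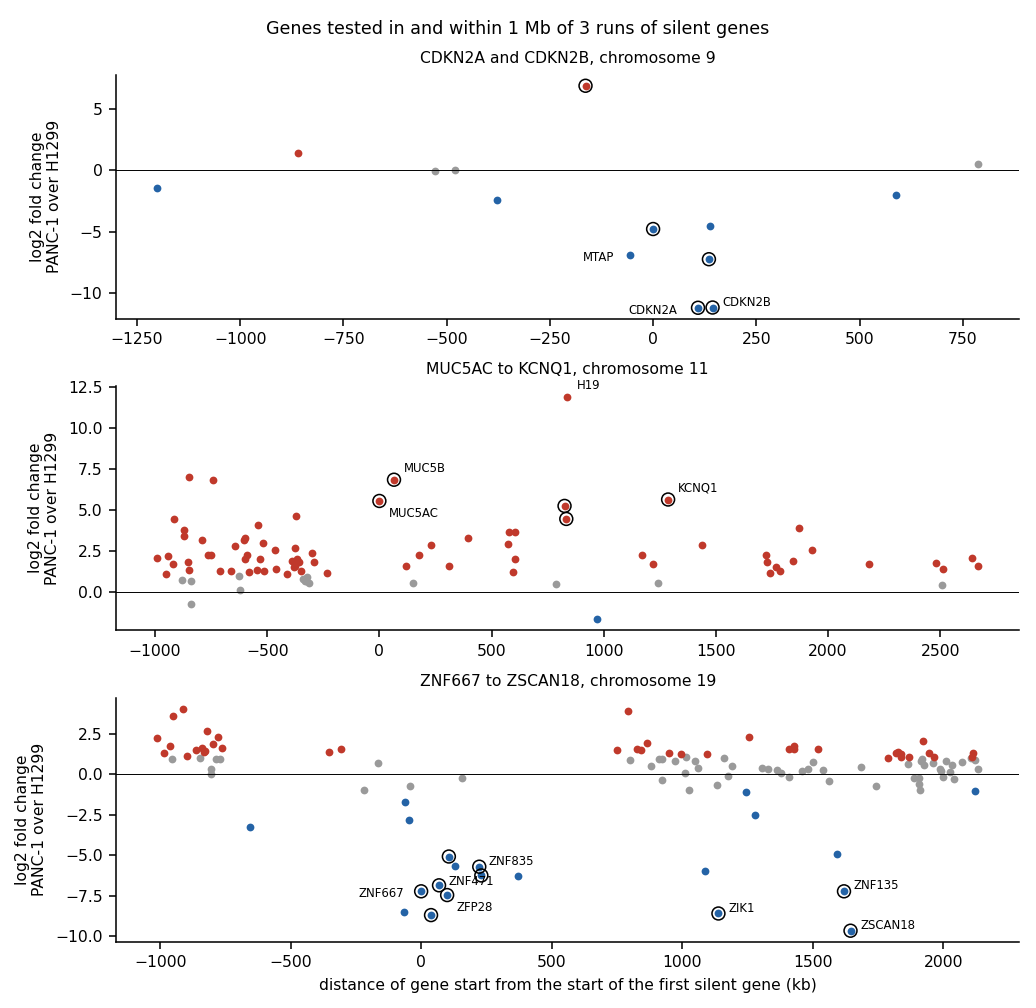
Log2 fold change, PANC-1 over H1299 (y axis), of genes tested in and within 1 Mb of 3 runs of silent genes, against the distance of the gene's start from that of the first silent gene (x axis, kb). Rings mark genes silent in 1 line and colours the calls, genes with 0 counts in a line are drawn at their bound, and the chromosome 11 window lies above 0 almost throughout while the chromosome 19 window has the silent genes below 0 between genes mostly near or above 0.

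Differences were also spread unevenly over whole chromosomes. Among genes at 1 CPM or more in all 6 libraries the median log2 difference was 0.55 on chromosome 11 and 0.52 on chromosome 10, and -0.71 on chromosome 8 and -0.46 on chromosome 4. The medians of the other chromosomes lay between these values. The X chromosome had a median of 0.28 and the largest share of genes silent in PANC-1, 5.39%, or 25 of 464 expressed in H1299. DNA copy number was not measured.

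Most cancer-testis and germline genes that were detected were higher in H1299. These genes are normally expressed in testis and shut off elsewhere by promoter methylation. The 57 genes of the list summed to 126 to 139 CPM in PANC-1 and 1689 to 1796 CPM in H1299, and 18 were below 0.1 CPM in all 6 libraries. Of the 21 that passed the filter, 19 were higher in H1299, 1 was higher in PANC-1 and 1 was not called, but 9 of the list were silent in PANC-1 and passed it through H1299, so the choice by level set part of that direction. MAGEA3 stood at 0.110, 0.0544 and 0.106 CPM in PANC-1 and 110, 99.4 and 103 CPM in H1299. CSAG1, a neighbour of the MAGEA genes, was at 0.0549, 0 and 0.0532 CPM against 40.5, 36.0 and 36.7. Both lie with MAGEA12 on the X chromosome, where the run chrX:152133310-152792268 had 13 of 13 tested genes higher in H1299. That run was drawn from 7 genes silent in PANC-1, whose direction was set by the choice. The MAGEA and CSAG genes have near-identical copies, so the split of reads among them is uncertain.

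Neuronal genes that the repressor REST keeps off in other cells were also more often higher in H1299, with 15 of 24 tested of 31 listed, 1 higher in PANC-1 and 8 not called (median log2 -1.77). UCHL1, a ubiquitin hydrolase abundant in neurons, was at 1.87, 2.01 and 1.65 CPM in PANC-1 and 1031, 896 and 931 CPM in H1299 (log2 -9.01, SE 0.12, edgeR adjusted p = 9.2e-22). REST itself was at 17.0, 22.7 and 24.3 CPM in PANC-1 and 28.8, 38.7 and 38.8 CPM in H1299, so its level was higher in the line with more of these transcripts, although under the limit for a call.

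Imprinted genes, which are expressed from the maternal or the paternal copy alone, differed in both directions, with 11 of 21 higher in PANC-1, 8 higher in H1299 and 2 not called. H19, a maternally expressed long noncoding RNA, was at 306, 317 and 284 CPM in PANC-1 and 0, 0.0582 and 0.156 CPM in H1299. MEG3, a maternally expressed long noncoding RNA of chromosome 14, was at 846, 886 and 866 CPM in PANC-1 and 2.30, 3.61 and 1.92 CPM in H1299, a 334-fold difference. The paternally expressed DLK1 of the same cluster was also on in PANC-1, at 24.9, 19 and 20.6 CPM, with 3 counts in all in H1299, as was DIO3, which inactivates thyroid hormone, at 7.19, 6.20 and 5.64 CPM against 0. All 7 genes tested in the run chr14:100538939-101620355 were higher in PANC-1, among them genes of maternal and of paternal expression. That run was drawn from 5 genes silent in H1299, so the choice by level set part of this direction. SNRPN, paternally expressed, was at 8.02, 7.23 and 6.60 CPM in PANC-1 and 0 in H1299, at least 132-fold lower, and 43.9% of its exon bases lie in another annotated gene. PEG3, also paternally expressed, was the reverse, at 0.0549, 0.0544 and 0.160 CPM in PANC-1 and 6.56, 7.74 and 7.99 CPM in H1299, and 51.0% of its exon bases are shared. Of 29 genes of DNA methylation and Polycomb repression, 6 were higher in PANC-1, 1 was higher in H1299 and 22 were not called. DNMT3B, a de novo methyltransferase, was 2.40-fold higher in PANC-1, and DNMT1, which maintains methylation, was not called, at 236 ± 4.41 CPM against 348 ± 7.43 (SD, n = 3 each).

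The lists of metabolic genes pointed in different directions. Of 24 tested glycolytic enzymes 8 were higher in PANC-1, 2 were higher in H1299 and 14 were not called (median log2 0.56). HK1, a hexokinase that phosphorylates glucose, was at 294, 272 and 299 CPM in PANC-1 and 115, 105 and 107 CPM in H1299, a 2.65-fold difference. LDHA, which makes lactate, was at 1270, 1140 and 1200 CPM against 670, 637 and 632, a 1.86-fold difference under the limit. GAPDH and PKM, enzymes of the same pathway, had the reverse order, with log2 differences of -0.76 (SE 0.09) and -0.55 (SE 0.07), neither called. LDHB, the subunit that favours lactate oxidation, was 2.52-fold higher in H1299, although another gene covers 33.4% of its exon bases. The glucose transporter SLC2A1 was not called, at 145 ± 11 CPM against 98.1 ± 4.49 (SD, n = 3 each), while the high-affinity transporter SLC2A3 was at 20.3, 18.4 and 20.4 CPM in PANC-1 and 152, 152 and 152 CPM in H1299, a 7.70-fold difference. Of 24 tested transporters of glucose, lactate and amino acids, 7 were higher in PANC-1, 6 higher in H1299 and 11 not called.

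The study grouped metabolic genes of malignant cells into meta-programs derived from single-cell data of tumours, not from these lines. In the glycolysis program 13 of 27 tested genes were higher in PANC-1 and 1 was higher in H1299 (median log2 0.90), whereas in the steroid program 0 of 30 were higher in PANC-1 and 11 higher in H1299 (median -0.76). PLOD2, a collagen lysyl hydroxylase in the glycolysis program, was at 327, 427 and 399 CPM in PANC-1 and 40.3, 51.2 and 46.8 CPM in H1299, an 8.34-fold difference. P4HA1, a collagen prolyl hydroxylase, was 4.23-fold higher in PANC-1. ASS1, which makes argininosuccinate in arginine synthesis, was at 31.0, 27.3 and 27.8 CPM against 3.36, 3.02 and 3.94, an 8.29-fold difference. AK4, a mitochondrial adenylate kinase, was the member higher in H1299, by 2.65-fold.

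Cholesterol genes were more often higher in H1299. Of 26 tested genes of cholesterol synthesis and uptake 12 were higher in H1299, 2 were higher in PANC-1 and 12 were not called (median log2 -0.92). FDFT1, squalene synthase, was at 94.0, 97.9 and 85.9 CPM in PANC-1 and 459, 438 and 419 CPM in H1299 (log2 -2.25, SE 0.08, edgeR adjusted p = 6.2e-16). FDPS, which makes farnesyl diphosphate, was 4.20-fold higher in H1299, and IDI1, one step earlier, 2.35-fold higher. SCD, a desaturase of fatty acids, was 4.09-fold higher in H1299, although fatty acid and lipid droplet genes as a list were divided, with 5 of 32 higher in PANC-1 and 6 in H1299. Since lists were searched for their largest called differences, the 3 synthesis genes named here do not stand for the whole list.

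Genes of nitrogen and redox metabolism differed in direction from list to list. Of 23 tested genes of the urea cycle and of arginine, proline and glutamine metabolism 9 were higher in PANC-1 and 1 in H1299 (median log2 0.73). Of 21 serine, glycine and one-carbon genes 0 were higher in PANC-1, 3 were higher in H1299 and 18 were not called (median -0.04), among them SHMT2, a mitochondrial serine hydroxymethyltransferase, at 180 ± 9.22 CPM against 239 ± 13.4, and PSAT1, of serine synthesis, at 209 ± 16.3 CPM against 159 ± 17.8 (SD, n = 3 each). Of 22 glutathione enzymes 7 were higher in PANC-1 and 3 in H1299. GPX1, a glutathione peroxidase, was at 94.9, 90.1 and 80.9 CPM in PANC-1 and 0.280, 0.0582 and 3.37 CPM in H1299, where replicate 3 held most of its counts. Its log2 difference of 6.09 (SE 0.35) became 8.95 without that library, and another gene covers 39.9% of its exon bases. PRDX2, a peroxiredoxin, had the same shape, at 23.7, 22.6 and 20 CPM against 0.280, 0.349 and 4.46, with a log2 difference of 3.64 (SE 0.40) that became 6.10 without replicate 3. GPX4 and PRDX1, which act on lipid and other peroxides, were expressed in both lines and not called (log2 0.75, SE 0.08 and log2 0.62, SE 0.07). Aldo-keto reductases and NRF2 targets had 5 of 18 higher in PANC-1 and 3 in H1299, and aldehyde dehydrogenases 1 of 14 and 3.

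Carbonic anhydrases and metallothioneins were divided gene by gene, with 8 of 15 higher in PANC-1, 4 higher in H1299 and 5 of the list silent in H1299. Those 5 passed the filter through PANC-1, so the choice by level set part of the count of 8. MT1E was among the silent genes described above, while MT2A, the main metallothionein of most cells, was not called, at 413 ± 30.8 CPM in PANC-1 and 353 ± 41.5 in H1299 (SD, n = 3 each). The MT1 genes lie in a cluster and resemble each other, so reads may be split among them. CA12, a membrane carbonic anhydrase, was at 1.37, 2.45 and 1.81 CPM in PANC-1 and had 1 count in all in H1299, and CA2, the cytosolic form, was 3.52-fold higher in H1299.

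Mitochondrial pathways of the study's own collection showed few calls. In oxidative phosphorylation 9 of 75 tested genes were higher in PANC-1 and 1 in H1299 (median log2 0.04), in the citric acid cycle 4 of 52 and 5 (among them IDH2, an isocitrate dehydrogenase, 6.80-fold higher in PANC-1), and in fatty acid oxidation 0 of 17 in either direction. The oxidative phosphorylation list summed to 7794 to 8834 CPM in PANC-1 and 7066 to 8286 CPM in H1299. Genes encoded in the mitochondrion took 6.99% to 7.29% of the counts in PANC-1 and 11.8% to 13.0% in H1299. Most of their counts therefore lie outside this list. ME1, the cytosolic malic enzyme, was at 49.1, 55.2 and 59.3 CPM in PANC-1 and 7.29, 7.56 and 8.56 CPM in H1299. In keratan sulfate synthesis 10 of 19 were higher in PANC-1 and 3 in H1299 (median 1.02), with the acetylglucosaminyltransferase B3GNT7 at 138, 120 and 111 CPM in PANC-1 and 0.0561, 0.174 and 0.311 CPM in H1299, and the sulfotransferase CHST2 10.5-fold higher in H1299.

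Among signalling genes, receptor tyrosine kinases were more often higher in PANC-1 and growth factor ligands more often higher in H1299. Of 37 tested receptor tyrosine kinases 17 were higher in PANC-1, 7 were higher in H1299 and 13 were not called (median log2 0.77). Of 26 growth factor ligands 4 were higher in PANC-1, 11 were higher in H1299 and 11 were not called (median -0.62). FGFR3, a receptor of fibroblast growth factors, was at 41.7, 38.6 and 32.7 CPM in PANC-1 and 2.30, 1.86 and 1.87 CPM in H1299, an 18.7-fold difference. RET, the receptor of GDNF-family ligands, was 53.5-fold higher in PANC-1, at 8.24 ± 0.986 CPM against 0.150 ± 0.0887 (SD, n = 3 each). AXL, the GAS6 receptor, was the reverse, at 267, 261 and 270 CPM in PANC-1 and 695, 667 and 632 CPM in H1299, a 2.50-fold difference.

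The ligands of the EGF receptor were not the same in both lines. EREG, or epiregulin, was at 15.4, 22.1 and 20.4 CPM in PANC-1 and 0 in H1299, at least 350-fold lower, and AREG, or amphiregulin, was at 14.3, 17.2 and 12.7 CPM against 0.336, 0.407 and 0.518. TGFA was at 1.21, 1.25 and 2.02 CPM in PANC-1 and 68.4, 68.3 and 76.2 CPM in H1299, a 47.2-fold difference. Of these 3 ligands of one receptor, EREG and AREG were thus higher in PANC-1 and TGFA in H1299. FGF5 was 108-fold higher in H1299, whereas PDGFB was 11.5-fold and PDGFA 8.06-fold higher in PANC-1. VEGFA was expressed in both lines and not called (log2 0.90, SE 0.09). Of 23 genes of RAS-MAPK feedback 4 were higher in PANC-1, 6 higher in H1299 and 13 not called, with the feedback inhibitors SPRY2 and SPRED1 2.98-fold and 2.23-fold higher in H1299 and the ETS factors ETV4 and ETV5 not called (log2 -0.82, SE 0.09 and log2 0.35, SE 0.07).

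In the WNT list 11 of 37 were higher in each line and 15 were not called. WNT7B was at 63.0, 61.3 and 56.1 CPM in PANC-1 and 0.673, 0.523 and 0.570 CPM in H1299, a 101-fold difference, while WNT5B was 8.31-fold and the receptor FZD1 6.22-fold higher in H1299. The nuclear effectors LEF1 and TCF7 were both higher in H1299, by 4.39-fold and 4.24-fold, and the secreted inhibitor SFRP1 was 6.84-fold higher in PANC-1. In the TGF-beta and BMP list 15 of 49 were higher in PANC-1, 13 higher in H1299 and 21 not called. BMP7 was at 9.72, 10.2 and 8.79 CPM in PANC-1 and 0.505, 0.931 and 1.40 CPM in H1299, and BMP2 was the reverse, at 0.439, 0.163 and 0 CPM against 3.76, 3.66 and 4.25. GDF15, a stress-induced distant member of the family, was at 431, 431 and 439 CPM in PANC-1 and 32.3, 24.8 and 35.7 CPM in H1299, a 14.0-fold difference. The BMP target ID3 was not called (log2 0.34, SE 0.08). Of 30 Notch and hedgehog genes 14 were higher in PANC-1, 5 higher in H1299 and 11 not called. GLI2, a transcription factor of the hedgehog pathway, was 14.2-fold higher in PANC-1, whereas PTCH1, the hedgehog receptor, was 3.46-fold higher in H1299.

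Cytokine genes were among the more divided lists, with 18 of 42 higher in PANC-1, 13 higher in H1299 and 11 not called. CSF1, which acts on macrophages, was at 393, 333 and 338 CPM in PANC-1 and 9.03, 11.2 and 9.49 CPM in H1299, a 35.8-fold difference. The neutrophil chemokines CXCL5 and CXCL6 had 0 counts in H1299 and lie with EREG in a run of 3 silent genes on chromosome 4, and CXCL8 was at 7.41, 10.7 and 14.8 CPM in PANC-1 and 0, 0.0582 and 0.156 CPM in H1299. Of 43 interferon-stimulated and antigen presentation genes 14 were higher in H1299, 7 higher in PANC-1 and 22 not called, with a median log2 difference of -0.01. B2M, the light chain of class I molecules, was not called (log2 0.76, SE 0.07). IFITM1, an interferon-induced membrane protein, was among those higher in PANC-1, at 62.5, 51.8 and 52.7 CPM in PANC-1 and 0.561, 0.523 and 0.207 CPM in H1299, and another gene covers 31.6% of its exon bases.

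Driver genes of both tumour types mostly differed by less than the limit in RNA level, with 23 of 33 tested not called, 3 higher in PANC-1 and 7 higher in H1299. NRAS, which is mutated in H1299, was at 74.3, 89.2 and 92.2 CPM in PANC-1 and 135, 149 and 150 CPM in H1299, a difference of 1.70-fold that was not called. RB1, the protein that CDK4 and CDK6 phosphorylate, overlapped between the lines (log2 -0.11, SE 0.11). CCND1, the cyclin partner of those kinases, was 2.34-fold higher in H1299, the line with CDKN2A counts. SMAD4 and KEAP1 were not called (log2 -0.55, SE 0.10 and log2 -0.54, SE 0.09).

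The targets of the other shRNAs of the series were expressed in both control lines. FOSL1, an AP-1 subunit, was at 224, 221 and 247 CPM in PANC-1 and 496, 441 and 438 CPM in H1299 (log2 -0.99, SE 0.08), just within the limit, and it passed the limit at -1.03 without H1299 replicate 2, without H1299 replicate 3 or without PANC-1 replicate 3, and at -1.03 and -1.06 with upper quartile and library-total scaling. HDAC2, a class I histone deacetylase, was at 194, 232 and 234 CPM in PANC-1 and 176, 183 and 192 CPM in H1299 and was not called (log2 0.26, SE 0.08). The lines did not overlap for either gene, but the share of all tested genes without overlap is not given here. By another measure, 13546 of 17619 tested genes had an adjusted p under 0.05.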

How the data were processed

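Total RNA of PANC-1 and H1299 cells with scramble shRNA (3 libraries each) was measured by paired-end RNA-seq. The deposited table holds raw counts for 60668 genes in 12 libraries. Per the paper's methods and the submitters' processing notes, the counts were made by the authors with STAR 2.7.2b as aligner, GRCh38 as genome and featureCounts 2.0.1 as counter. The strand setting and annotation release are not given in the sources used here, so a gene and its antisense partner cannot be told apart, and reads shared by overlapping or near-identical genes were not reassigned. The labels call the replicates biological but do not say whether cells were transduced separately, so p-values measure the spread between these libraries.

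Counts were fitted with edgeR 4.0.16 in R 4.3.3 (filterByExpr by group, TMM, quasi-likelihood test, Benjamini-Hochberg over 17619 genes) and a gene was called when its adjusted p was under 0.05 and its log2 fold change above 1 or below -1. An exact permutation test of 3 against 3 cannot go below a two-sided p of 0.1. Alternatives used DESeq2 1.42.0, limma 3.58.1, other scalings, filters and limits, each library left out, and a replicate block. The procedure was tested on simulated data. Silent genes were below 0.1 CPM in each library of a line and at least 1 CPM in each of the other, without genes of the Y chromosome, XIST and TSIX. Ratios for 1 to 3 counts have exact 95% counting intervals, which cover counting error only. Gene positions came from GENCODE release 44, which matched 60295 identifiers, and promoters from RefSeq.

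The 42 gene lists (1188 genes, 1 symbol unmatched), the rule for names and the comparison were chosen with earlier results of these data known. Genes were named if they were among the 12 largest called differences in each direction at 20 CPM or more (protein-coding), the 6 largest called in each direction or 3 highest uncalled of a list, the 12 highest silent genes of a line, silent genes in lists or runs, or a driver or defining marker. Pathways needed at least 10 tested genes. The correlation of deviations from the group mean between libraries with the same number was 0.169, 0.0383 and 0.0543, so the numbers were not taken as pairs. Results for some genes are not reported here.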

Additional observations from a re-analysis of the deposited data

How the results depend on the processing

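The counts of 3472 genes higher in PANC-1 and 3575 higher in H1299 stayed within 1.5 times under DESeq2 (4048 and 4073), limma-voom (3477 and 3587), RLE, upper quartile and library-total scaling, a filter of 1 count (4542 and 4791), glmTreat (2667 and 2690), a fit over 12 libraries and one without mitochondrial and the 20 most abundant genes. With the replicate number as a block they were 3467 and 3572, and with each library left out 3540 to 3745 and 3650 to 3833. With at least 10 counts in each library they were 2046 and 1949, with a log2 limit of 0.5 they were 5365 and 5552, and with a limit of 2 they were 1694 and 1690, since these settings test fewer genes or move the limit itself. Counts within gene lists stayed within 1.5 times in 1454 of 1596 recomputations, and of the other 142, 26 fell under the log2 limit of 0.5, 51 under that of 2 and 40 under the filter of 10 counts. Silent genes depended on their limits. Below 0.05 CPM, H1299 had 103, and 170 of PANC-1 and 61 of H1299 were also below it in the knockdown libraries. Below 0.25 CPM there were 495 and 334, of which 440 and 287 in the knockdown libraries too. With expression set at 0.5 CPM, H1299 had 257 and 190, and at 5 CPM the counts were 117 and 54, with 101 and 41 in the knockdown libraries. With each library left out the silent genes numbered 333 to 361 in PANC-1 and 175 to 230 in H1299, and those also below the limit in the knockdown libraries 278 to 288 and 130 to 154. With each library left out, the log2 difference of RB1 ranged from -0.226 to 0.0134, the upper value without PANC-1 replicate 1. The depth leaves room for 0.0542 CPM in PANC-1 and 0.0552 CPM in H1299 at a gene with 0 counts, as 219 of the 320 and 103 of the 167 silent genes had. DNA copy number and methylation were not measured.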
